A study of Mus musculus with 24 samples.

Results

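Pck1, Dgat2, Lpin1, Thrsp, Cidea and Ucp1 are genes of triglyceride synthesis and of brown fat whose levels differed between muscle of Hira knockout mice and control muscle. They are 6 of the 17742 genes measured, and they were picked by symbol because of that difference, so their values are a description here and carry no test. The array held 7 probe rows for them, 2 for Lpin1 and 1 for each of the other 5 genes. The RNA came from the tibialis anterior, a fast muscle of the lower hind limb, of mice aged 6 months on a mixed C57BL6/J and 129S1/SvImJ background. The 4 knockout animals were Myf6 cre/+; Hira flox/- and the 4 control animals Myf6 cre/+; Hira flox/+, with 3 hybridisations of the RNA of every animal. Cre was made from the Myf6 locus, which is active in myofibres, in both groups. Control fibres therefore kept 1 intact copy of Hira by genotype, while knockout animals carried the null copy in every cell.

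HIRA is a chaperone that deposits the histone H3.3 independently of DNA synthesis. The difference at the Hira probe was -0.15 ± 0.17 (log2, SE) and did not pass (limma, adjusted p = 0.623). It checks no genotype, since the place of the probe relative to the deleted stretch was not given in the sources used here. The 6 measured of 10 fast fibre markers had mean log2 intensities of 17.92 to 18.46 in knockout animals and 18.18 to 18.57 in control animals. Whole muscle holds fat cells, vessels and nerve beside fibres, and in such bulk samples fewer cells of a type and less RNA per cell cannot be told apart.

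Triglycerides are built by adding fatty acids to glycerol 3-phosphate. In fat and liver that backbone can be made from pyruvate through glyceroneogenesis, for which phosphoenolpyruvate carboxykinase, encoded by Pck1, is the controlling step. The lipins then remove the phosphate to give diacylglycerol, and the DGAT enzymes add the last fatty acid. In brown fat, CIDEA acts on the surface of lipid droplets and UCP1 lets protons return across the inner mitochondrial membrane without ATP synthesis, which releases heat. Muscle fibres store triglyceride in droplets beside their mitochondria and are not known for UCP1, and they can make heat by calcium cycling through the sarcoplasmic pump instead.

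The 250 bases before the annotated start are shown for 4 of the 6 genes, 2 that lay lower in knockout muscle (Pck1 and Lpin1) and 2 that lay higher (Thrsp and Ucp1), so that the start regions of both can be read side by side. The sequences are those of RefSeq on GRCm38.p6, written 5′ to 3′ on the strand of the gene. Pck1 is at chr2:173152823-173153072 on the plus strand, Lpin1 at chr12:16610967-16611216 on the minus strand, Thrsp at chr7:97417551-97417800 on the minus strand and Ucp1 at chr8:83290098-83290347 on the plus strand. Capitals mark 4 short motifs, searched on both strands and chosen after the promoters were seen.
Pck1: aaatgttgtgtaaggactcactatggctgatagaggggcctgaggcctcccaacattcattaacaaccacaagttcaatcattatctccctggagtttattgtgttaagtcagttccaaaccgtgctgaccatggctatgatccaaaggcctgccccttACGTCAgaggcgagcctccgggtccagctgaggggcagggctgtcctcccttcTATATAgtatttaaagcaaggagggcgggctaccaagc
Lpin1: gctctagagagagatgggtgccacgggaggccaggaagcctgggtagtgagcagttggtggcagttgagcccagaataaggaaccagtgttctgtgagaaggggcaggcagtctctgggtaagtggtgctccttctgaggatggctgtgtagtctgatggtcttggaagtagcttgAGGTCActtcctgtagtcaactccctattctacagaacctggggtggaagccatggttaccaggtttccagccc
Thrsp: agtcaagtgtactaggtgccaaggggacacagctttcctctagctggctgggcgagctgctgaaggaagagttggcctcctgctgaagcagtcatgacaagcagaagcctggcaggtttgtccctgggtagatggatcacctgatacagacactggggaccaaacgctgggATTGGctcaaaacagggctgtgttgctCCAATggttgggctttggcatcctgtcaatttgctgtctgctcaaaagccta
Ucp1: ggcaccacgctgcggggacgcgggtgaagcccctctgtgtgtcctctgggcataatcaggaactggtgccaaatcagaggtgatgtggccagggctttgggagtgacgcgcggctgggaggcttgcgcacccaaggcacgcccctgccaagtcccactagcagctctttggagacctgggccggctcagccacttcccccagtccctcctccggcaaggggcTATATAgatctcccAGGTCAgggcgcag
The core of a TATA box, TATATA, began 38 bases before the start of Pck1 and 28 before that of Ucp1, and 5.25% of 32851 promoters of the same length hold it. The core of a cAMP response element, ACGTCA, began 91 bases before the start of Pck1 and is found in 6.47% of promoters. AGGTCA, a single site for nuclear receptors, began 74 bases before the start of Lpin1 and 14 before that of Ucp1, and 14.02% of promoters hold it. CCAAT lay in Thrsp on both strands, 79 bases before the start on the minus strand, where it reads ATTGG, and 52 before it on the plus strand, and 33.85% of promoters hold it. These are matches of letters, and binding to them was not measured.

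All values are array intensities, and log2 differences are knockout minus control. In the fit over all genes (limma, adjusted p under 0.05) 9.28% of the 17742 genes were called, 4.28% higher and 5.01% lower in knockout muscle, and all 6 genes were among them. Thrsp, Cidea and Ucp1 lay higher and Pck1, Dgat2 and Lpin1 lower. The 4 knockout animals lay apart from the 4 control animals in each of the 6, as they did in 17.5% of all genes. Since the genes were picked on this contrast, nothing can be read from those counts.

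**Figure D1:**
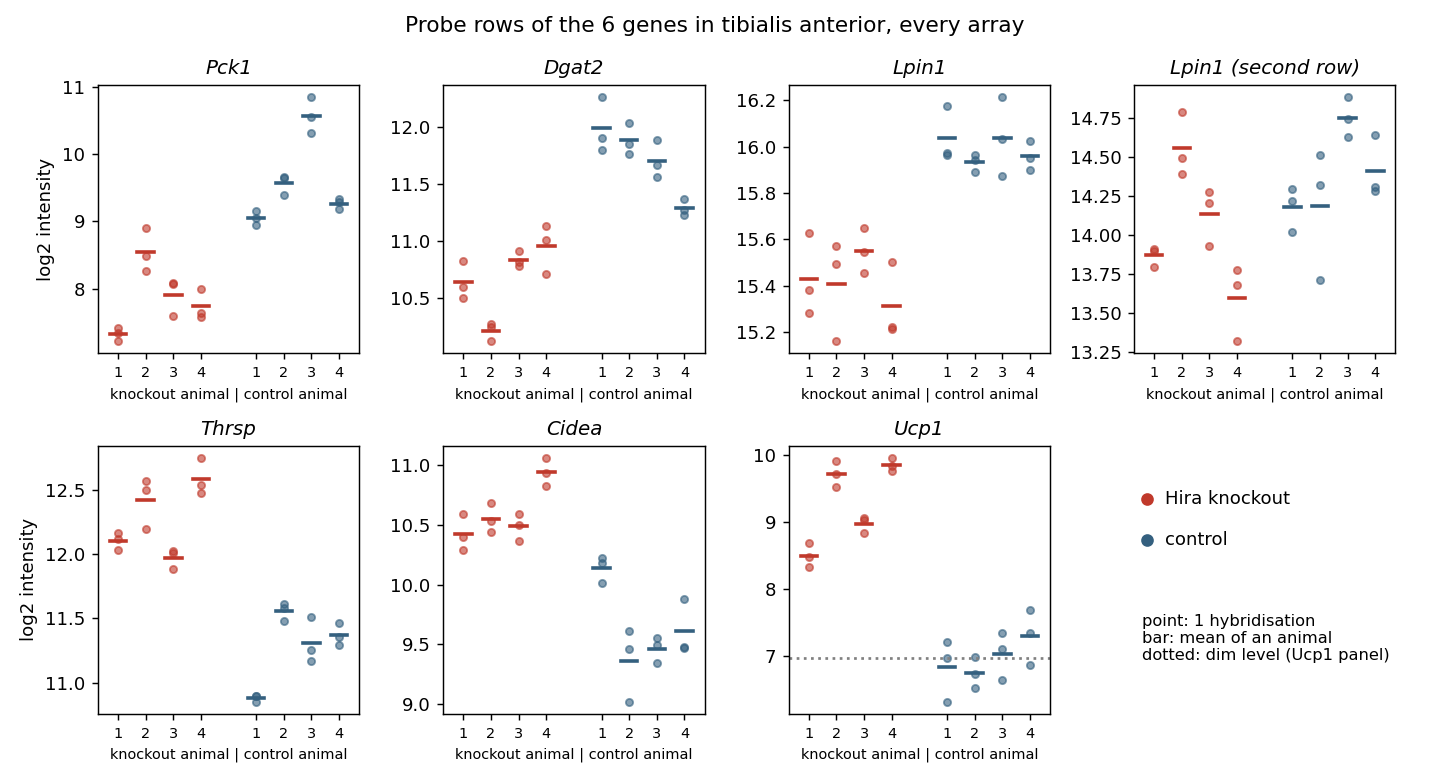
Log2 intensity of each of the 7 probe rows on all 24 arrays, knockout animals 1 to 4 on the left of a panel and control animals 1 to 4 on the right; points are hybridisations and bars are animal means. In the 6 rows that stand for the genes the means of knockout animals do not overlap those of control animals, as in 17.5% of all genes. The second Lpin1 row overlaps, and the control arrays of Ucp1 lie around the dim level of 124.61 (dotted).

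Pck1, the gene of the controlling step of glyceroneogenesis in fat and liver, had the largest negative difference of the 6. Its intensity was 159.9, 374.7, 240.7 and 212.6 in knockout animals 1 to 4, against 530.4, 759.4, 1531 and 616.5 in control animals 1 to 4. Control animal 3 stood highest and knockout animal 1 lowest, and the nearest animals of the groups, knockout animal 2 and control animal 1, were 1.42-fold apart. The means were 7.88 ± 0.51 (log2; SD, n = 4) in knockout and 9.62 ± 0.68 in control muscle, a difference of -1.74 ± 0.33 (SE), or 3.34-fold lower. Over both groups the SD between animals of a group was 0.60 on the log2 scale, against 0.21 between hybridisations of an animal.

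Lpin1 encodes the phosphatidate phosphatase that is the main lipin of muscle, and which also acts with nuclear receptors as a coactivator. The brighter row read 44132, 43530.4, 47946 and 40691 in knockout animals 1 to 4, against 67249.9, 62562, 67361 and 63663 in control animals 1 to 4. The 4 knockout animals and the 4 control animals each formed a tight group, 1.30-fold apart at the nearest. Mean log2 intensity was 15.43 ± 0.097 (SD, n = 4) in knockout and 15.99 ± 0.055 in control muscle, a difference of -0.57 ± 0.11 (SE), or 1.48-fold lower. The second row of Lpin1 gave 14961, 24088, 18005 and 12360.3 in knockout animals, against 18543, 18590.1, 27552 and 21754 in control animals. In that row the groups overlapped, knockout animal 2 lay above 3 control animals, and the difference was -0.34 ± 0.21, so the rows of Lpin1 differ in how clearly they part the groups. The transcripts that each row reads were not given in the sources used here.

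Dgat2 encodes 1 of the DGAT enzymes of the last step, the one tied to newly made fatty acids. It read 1592, 1183, 1827 and 1980.2 in knockout animals 1 to 4, against 4069.6, 3789, 3340.1 and 2502 in control animals 1 to 4. Control animal 4 was the lowest control and knockout animal 4 the highest knockout, 1.26-fold apart. On the log2 scale the means were 10.66 ± 0.33 (SD, n = 4) in knockout and 11.72 ± 0.31 in control muscle, a difference of -1.06 ± 0.19 (SE), or 2.09-fold lower. The animal numbers in the labels fall into 2 runs, A (animals 1 and 2 of each group) and B (animals 3 and 4), with a meaning not given in the sources used here. The Dgat2 difference was -1.52 in run A and -0.60 in run B, with 2 animals per group in each.

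Thrsp encodes a small nuclear protein of fat and liver that supports fatty acid synthesis and is known in rodents as a gene induced by thyroid hormone and carbohydrate. It read 4403, 5488, 4018 and 6142 in knockout animals 1 to 4, against 1888, 3013, 2542 and 2645 in control animals 1 to 4. Knockout animals 2 and 4 stood highest and control animal 1 lowest, and the nearest animals of the groups were 1.33-fold apart. Mean log2 intensity was 12.27 ± 0.28 (SD, n = 4) in knockout and 11.28 ± 0.28 in control muscle, a difference of 0.99 ± 0.18 (SE), or 1.99-fold higher.

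Cidea, a lipid droplet protein of brown fat, read 1377, 1501, 1436 and 1965 in knockout animals 1 to 4, against 1127, 658.1, 704.6 and 780.3 in control animals 1 to 4. Knockout animal 4 stood above the other knockouts, and control animal 1 above the other controls and 1.22-fold below the nearest knockout animal. On the log2 scale the means were 10.60 ± 0.23 (SD, n = 4) in knockout and 9.64 ± 0.35 in control muscle, a difference of 0.96 ± 0.18 (SE), or 1.94-fold higher. It was 0.74 in run A and 1.18 in run B.

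Ucp1, the uncoupling protein of brown fat, had the largest difference of the 6 genes. It read 358.7, 838.4, 501.4 and 920.5 in knockout animals 1 to 4, against 113.4, 106.9, 130 and 156.9 in control animals 1 to 4. Knockout animals 2 and 4 stood highest, all 4 control animals were close together, and the nearest animals of the groups were 2.29-fold apart. On the log2 scale the means were 9.25 ± 0.64 (SD, n = 4) in knockout and 6.97 ± 0.25 in control muscle, a difference of 2.28 ± 0.27 (SE), or 4.87-fold higher. The control level of 125.4 stood next to the dim level of 124.61, the highest 5th percentile of any array, and 6 of the 12 control arrays lay at or under it, so the size of the fold depends on values near background. By array, Ucp1 ran between 319.1 and 989.6 in knockout and between 79.3 and 205.4 in control muscle.

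Across the processing alternatives each of the 6 differences kept its direction, although several alternatives change only the variance or the genes tested and cannot move a difference. As a description, 5 of the 6 stayed among the called genes when the rows of each gene were averaged, 0 with run A alone, 2 with run B alone and all 6 in the other alternatives. Averaging rows alters the values of Lpin1 only, the 1 gene of the 6 with 2 rows. Leaving out each animal in turn gave -1.96 to -1.42 for Pck1, -0.61 to -0.53 for Lpin1, -1.20 to -0.91 for Dgat2, 0.86 to 1.09 for Thrsp, 0.85 to 1.13 for Cidea and 2.09 to 2.54 for Ucp1. Within runs A and B of the animal numbers Pck1 differed by -1.37 and -2.10, Lpin1 by -0.57 and -0.57, Thrsp by 1.04 and 0.94, and Ucp1 by 2.32 and 2.25. For Lpin1 the spread between hybridisations of an animal (SD 0.14, log2) was wider than that between animal means (0.079), while for the other 5 genes the animals spread more than their hybridisations.

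Of 9 relatives of the 6 genes that were measured, Mid1ip1 rose and Cidec fell, which is 22.2% against 9.28% of all genes, and their median log2 difference was -0.06 against -0.07 over all genes. Mid1ip1, the paralogue of Thrsp, encodes a partner of acetyl-CoA carboxylase. It read 36752, 44396, 38363 and 41319 in knockout animals, against 15356, 16526, 14837 and 14447 in control animals, and rose by 1.39 ± 0.11 (log2, SE; limma, adjusted p = 4.76e-05). Cidec, the white fat relative of Cidea, read 296.7, 331.5, 288.2 and 295.2 in knockout animals, against 428.4, 629.6, 1299 and 702.5 in control animals, a difference of -1.22 ± 0.26 (limma, adjusted p = 0.016). That call was lost when the floor was set at the dim level (adjusted p = 0.0551), which left the difference of Cidec unchanged. Cidea and Cidec thus lay in opposite directions, and control animal 3, the highest for Pck1, was also the highest for Cidec. Dgat1, the other DGAT enzyme, had a difference of 0.38 ± 0.13 (limma, adjusted p = 0.0952), the mitochondrial enzyme gene Pck2 one of -0.40 ± 0.19 (adjusted p = 0.223) and Lpin2 and Lpin3 ones of -0.21 and -0.06. Ucp3, the muscle member of the uncoupling family, had -0.30 ± 0.26 (adjusted p = 0.511) and Ucp2 -0.04 ± 0.16 (adjusted p = 0.907).

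Around Lpin1 and Dgat2, 1 of 16 measured genes of triglyceride synthesis rose and 0 fell, or 6.25%, near the 9.28% of all genes, and their median difference was 0.03. Agpat1, which adds the second fatty acid, had levels of 3233 in knockout and 2420.1 in control muscle, a rise of 0.42 ± 0.10 (log2, SE; limma, adjusted p = 0.0285). Its call was lost without control animals 1, 3 or 4 or knockout animals 1, 3 or 4, with differences of 0.39 to 0.44. Gpd1, which makes glycerol 3-phosphate from a glycolytic intermediate, had -0.42 ± 0.12 (adjusted p = 0.056) and Gpam, the first acyltransferase, -0.21 ± 0.15 (adjusted p = 0.413).

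Beside Pck1, 1 of 13 measured genes of glyceroneogenesis and gluconeogenesis rose and 1 fell, or 15.4% against 9.28% of all genes, with a median of -0.30. Quantile normalization moved that median to -0.19 with 3 genes called lower, and cyclic loess to -0.19 with 2. Gpt2, the mitochondrial alanine transaminase that links alanine and pyruvate, read 26756, 21575, 21564 and 20748 in knockout animals, against 47878, 46103, 45321 and 41182 in control animals. The difference was -0.999 ± 0.12 (log2, SE; limma, adjusted p = 0.000518), with every knockout animal below every control animal. Mdh1, the cytosolic malate dehydrogenase, had levels of 7214 in knockout and 4252 in control muscle and rose by 0.76 ± 0.17 (limma, adjusted p = 0.0187). The Mdh1 call was lost without control animal 3 (0.68), knockout animal 2 (0.73) or knockout animal 4 (0.68).

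Around Thrsp, 1 of 12 measured genes of fatty acid synthesis rose, Mid1ip1, and 0 fell, or 8.33%, near the share over all genes, with a median of -0.16 that cyclic loess moved to -0.10. Scd1, the desaturase that makes oleate, had -0.52 ± 0.20 (limma, adjusted p = 0.132), Acaca, an acetyl-CoA carboxylase, 0.03 ± 0.13 (adjusted p = 0.901), and Fasn was dim in both groups. Of 13 genes of fatty acid uptake and activation 1 fell, or 7.69%, again near 9.28%, with a median of -0.25, or -0.16 by quantile normalization and -0.14 by cyclic loess. This was Gpihbp1, which holds lipoprotein lipase on the capillary wall, at 9402 in knockout and 19688 in control muscle (log2 difference -1.07 ± 0.16; limma, adjusted p = 0.00262). The probe of the lipase itself, Lpl, was dim in both groups.

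Lipid droplet and lipolysis genes, the group around Cidea, held the most calls, with 3 of 17 measured genes higher and 2 lower, or 29.4% against 9.28% of all genes, and a median of -0.13 that cyclic loess moved to -0.08. Plin5, a droplet coat protein of oxidative tissues, read 1669, 2169, 1278 and 1160.4 in knockout animals, against 5188, 3996, 4213 and 3369 in control animals, a difference of -1.44 ± 0.20 (log2, SE; limma, adjusted p = 0.00142). Plin3, a coat protein of small droplets in most tissues, rose by 0.74 ± 0.12 (adjusted p = 0.00343), with levels of 7021 in knockout and 4218 in control muscle. Pnpla3, an enzyme of droplet triglyceride, rose by 1.39 ± 0.29 (adjusted p = 0.0129), although another row for it gave 0.64. Its call was lost with the floor at the dim level (adjusted p = 0.0503), with the difference unchanged. Fitm2, which helps droplets bud from the endoplasmic reticulum and is named here after its values were seen, rose by 0.77 ± 0.21 (adjusted p = 0.042). Pnpla2, the main triglyceride lipase, had -0.26 ± 0.13 (adjusted p = 0.24) and Plin2, the common coat protein of muscle droplets, -0.42 ± 0.17 (adjusted p = 0.156).

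Beside Ucp1, 2 of 11 genes of uncoupling and calcium cycling rose and 0 fell, or 18.2% against 9.28% of all genes. Their median was -0.04, but quantile normalization turned it to 0.01 and cyclic loess to 0.04, so its sign depends on the scaling. Both genes that rose act at the calcium pump. Atp2a2, the pump of slow fibres, rose by 2.05 ± 0.14 (limma, adjusted p = 2.02e-05), with levels of 10593 in knockout and 2566 in control muscle, but its other rows gave -0.44 and 1.80. Sln, sarcolipin, which lets the pump use ATP without moving calcium, read 1846, 2514, 1926 and 2034 in knockout animals, against 822.3, 876.9, 741.2 and 1117 in control animals, a rise of 1.23 ± 0.15 (adjusted p = 0.000624). Atp2a1, the pump of fast fibres, had -0.11 ± 0.14 (adjusted p = 0.679).

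Among 22 transcription factors of lipid genes 1 rose and 3 fell, or 18.2% against 9.28% of all genes. Their median was -0.05, near the -0.07 over all genes. Nr1h3, the liver X receptor alpha, had levels of 2427 in knockout and 3757 in control muscle and fell by 0.63 (log2; SE 0.13; limma, adjusted p = 0.0126). Rxrg, a retinoid X receptor of muscle, had -0.53 ± 0.13 (adjusted p = 0.0256) and lost its call without control animals 1 or 4 or knockout animals 2 or 3 (-0.53 to -0.45). Mlxipl, the carbohydrate-responsive factor ChREBP, had -0.47 ± 0.13 (adjusted p = 0.0459) and lost its call without any 1 animal other than control animal 4 (-0.49 to -0.38). Cebpa, a factor of fat cell differentiation, had 0.45 ± 0.12 (adjusted p = 0.0363) and lost its call without control animals 1, 2 or 4 or knockout animals 1, 3 or 4 (0.39 to 0.48). Ppargc1a, the coactivator of Ucp1 in brown fat, had 0.14 ± 0.19 (adjusted p = 0.683), Srebf1, a factor of fatty acid synthesis genes, 0.01 ± 0.12 (adjusted p = 0.986), and Pparg was dim in both groups.

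Of 8 measured genes of adrenergic and thyroid input, the signals that raise Ucp1 in brown fat, 0 were called (limma) and 2 had an unadjusted p under 0.05. The smallest p-values were those of Creb1 (-0.34 ± 0.12, limma, adjusted p = 0.107) and Slc16a10 (-0.26 ± 0.12, adjusted p = 0.192), whose other rows gave 0.18 and -0.05. Creb1 was called under quantile normalization (adjusted p = 0.0403), with array weights (adjusted p = 0.0448) and in both fits of all arrays (adjusted p = 0.0129 and 0.0194). Those fits of all arrays take 1 within-animal correlation for every gene. Where that of a gene is higher, its hybridisations count in part as replicates. Dio2, which activates thyroid hormone, had 0.39 ± 0.19 (adjusted p = 0.24). Genes of fasting and glucocorticoids, signals known to raise Pck1 in liver, were lower in part. Of 19 measured, 0 were called higher and 3 called lower, or 15.8% against 9.28% of all genes. Their median was -0.27, with 6 genes above 0 and 13 below. Tsc22d3, a classical glucocorticoid target, had levels of 29657 in knockout and 61172 in control muscle (log2 difference -1.04 ± 0.18; limma, adjusted p = 0.00534), and Trim63, a ubiquitin ligase of muscle wasting, had -0.84 ± 0.16 (adjusted p = 0.00836). Arrdc2, an arrestin-domain gene, had -2.49 ± 0.54 (adjusted p = 0.016) and lost its call without knockout animal 2 (-2.32), with the floor at the dim level (adjusted p = 0.0648) and with an intensity trend (adjusted p = 0.0718). The higher floor and the trend left its difference unchanged. Among genes of the list that did not pass, Fkbp5 had 0.08 ± 0.14 (limma, adjusted p = 0.776) and Zbtb16 -0.06 ± 0.14 (adjusted p = 0.81). Mt2 had 1.52 ± 0.49 (limma, adjusted p = 0.078). The mean log2 level of the 19 genes was 12.70 to 12.89 in knockout animals, against 12.98, 13.49, 13.51 and 12.92 in control animals 1 to 4. Control animals 2 and 3, the highest for that list, were also the highest for Pck1, whose dependence on it was not tested.

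**Figure D2:**
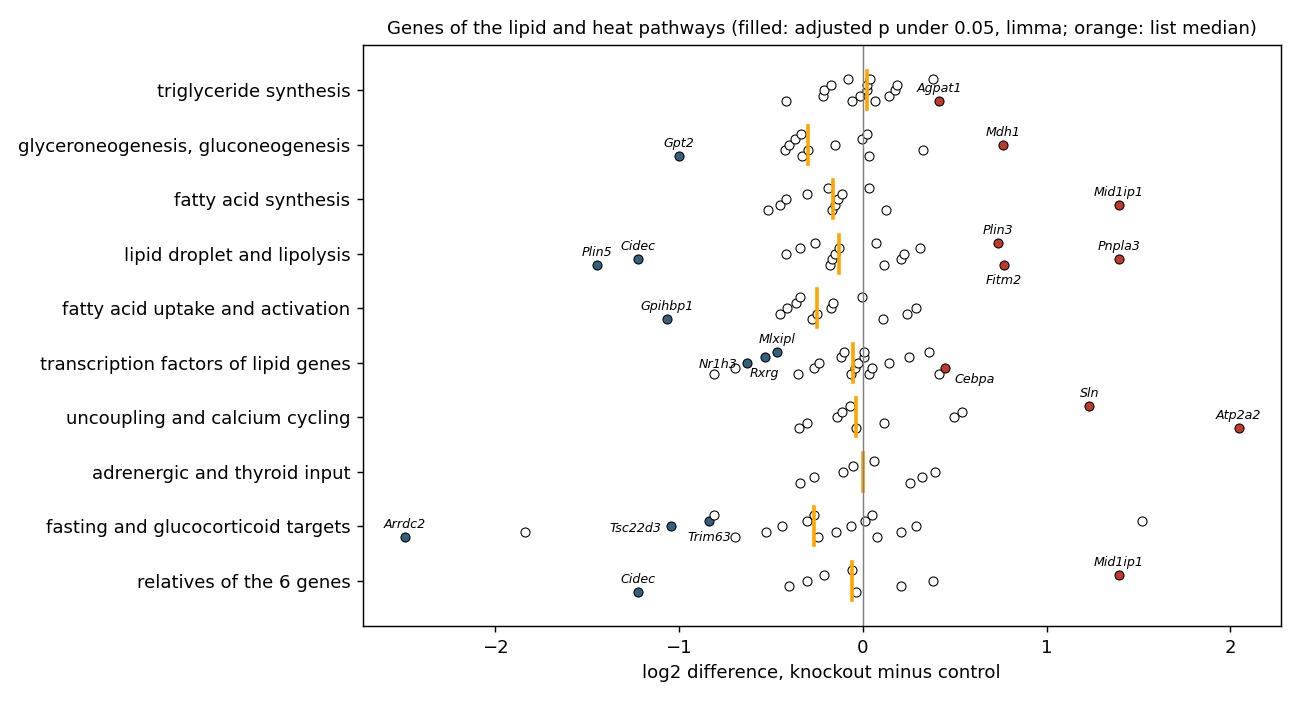
Log2 difference (knockout minus control) of each measured gene of 10 lists, 1 point per gene, with genes at an adjusted p under 0.05 (limma) filled red for higher and blue for lower and an orange bar at the list median. Over the lists 9 of 127 genes were called higher and 10 lower, with Atp2a2 at the upper end and Arrdc2 at the lower end.

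Counted once each, 19 of the 127 measured genes of these lists were called, or 15.0%, against 9.28% of all genes, 9 higher and 10 lower. The lists and the 6 genes were chosen with results of these data known.

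Markers of fat cells were read beside the 6 genes, since each of the 6 is also a gene of fat cells. White adipocyte markers were lower in part, with 0 of 19 measured markers called higher and 4 called lower, or 21.1% against 9.28% of all genes. Their median was -0.35, against -0.07 over all genes. Below 0 lay 15 of the 19, beside 10588 of all 17742 genes. Cyclic loess left 3 called lower, with a median of -0.29. Cfd, which encodes adipsin, read 1718, 1341, 1149 and 1522 in knockout animals, against 1931, 2486, 7276 and 4232 in control animals, a difference of -1.30 ± 0.34 (log2, SE; limma, adjusted p = 0.0367). That call was lost under quantile normalization (adjusted p = 0.0542) and cyclic loess (adjusted p = 0.0548) and without control animals 3 or 4 or any 1 knockout animal (-1.39 to -0.95), and Slc7a10, an amino acid transporter, lost its call without control animals 2, 3 or 4 or knockout animals 1, 2 or 3 (-0.70 to -0.54). Lep, the leptin gene, was at least 1.38-fold lower in knockout muscle, where it was dim (limma, adjusted p = 0.00981), and Slc7a10, dim there too, at least 1.34-fold lower (adjusted p = 0.0343). Cidec was the other marker to fall. All 4 calls were lost with the floor at the dim level. There the log2 difference was -0.49 for Lep (adjusted p = 0.129) and -0.39 for Slc7a10 (adjusted p = 0.132). The differences of Cidec and Cfd were unchanged there, and only their adjusted p rose (0.0551 and 0.102). Adipoq, the adiponectin gene, had levels of 1912 in knockout and 3114 in control muscle but did not pass (adjusted p = 0.0758), and Pparg and Acvr1c were dim in both groups.

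The mean log2 intensity of the white adipocyte markers was 9.89 to 10.01 in knockout animals and 10.15 to 10.64 in control animals, with no overlap and control animal 3 highest. Control animal 3 was also the highest of the 8 for Pck1, Cidec, Cfd, Lep and Adipoq. Of the other measured white adipocyte markers, Slc7a10, Nnat, Trarg1, Plin1 and Retn were also highest there. Fabp4, Gpd1 and Aoc3 were highest in control animal 2, and Pparg, Acvr1c and Fabp5 in control animal 4. Plin4, Car3, Lipe and Rbp4 were highest in knockout animals. The part of fat cell RNA in the levels of the 6 genes was not tested.

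**Figure D3:**
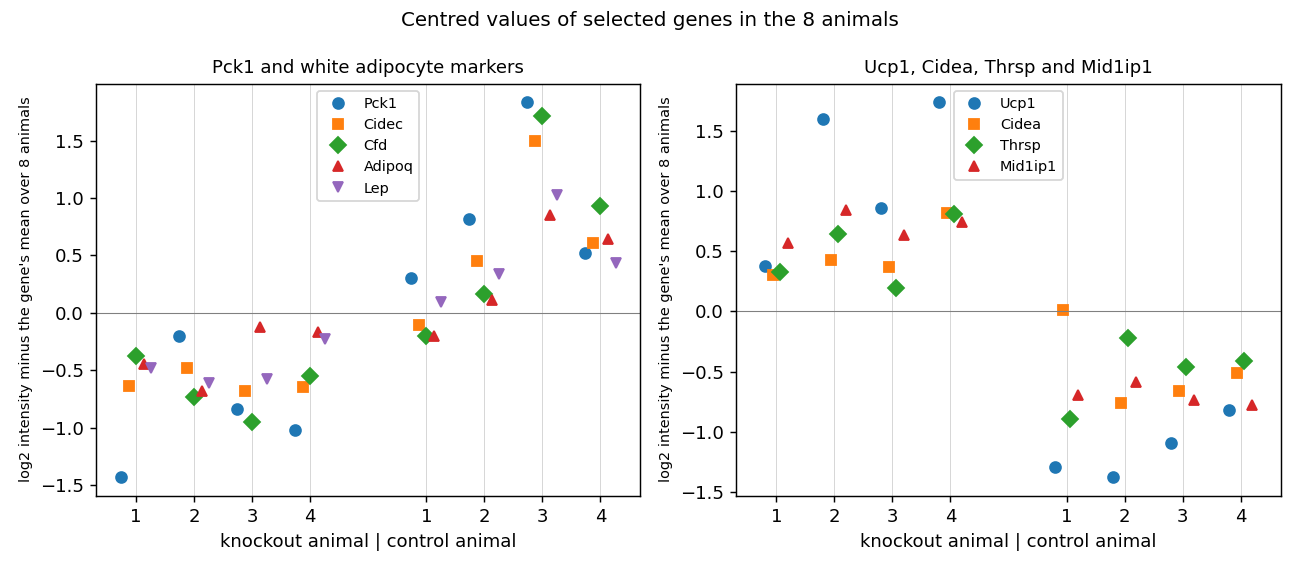
Log2 intensity minus the mean of the gene over the 8 animals, with knockout animals left and control animals right in each panel and 1 symbol per gene. Pck1 and the white adipocyte markers picked for display, Cidec, Cfd, Adipoq and Lep, peak together in control animal 3. Several other markers of that list peak in other animals. Ucp1, Thrsp and Cidea stand highest in knockout animal 4.

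Of 19 measured brown adipocyte markers other than the 6 genes, 0 were called higher and 1 lower, or 5.26%, near the 9.28% of all genes, with a median of -0.13, although 1 was called higher under quantile normalization and 2 under cyclic loess. The 1 that fell was Plin5, which muscle fibres express as well. Zic1, a factor of brown fat of the back, read 1490, 2271, 941.7 and 1331 in knockout animals, against 959.1, 1347, 958.9 and 658.5 in control animals, with overlap (0.59 ± 0.27; limma, adjusted p = 0.2). Prdm16, a determinant of brown fat, Elovl3, a cold-induced elongase, and the channel gene Kcnk3 were dim in both groups. Cox8b, which muscle also expresses, differed by 0.06 ± 0.16 (adjusted p = 0.853). The mean log2 intensity of the brown markers was 10.23 to 10.53 in knockout animals and 10.41 to 10.54 in control animals, which overlap.

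**Figure D4:**
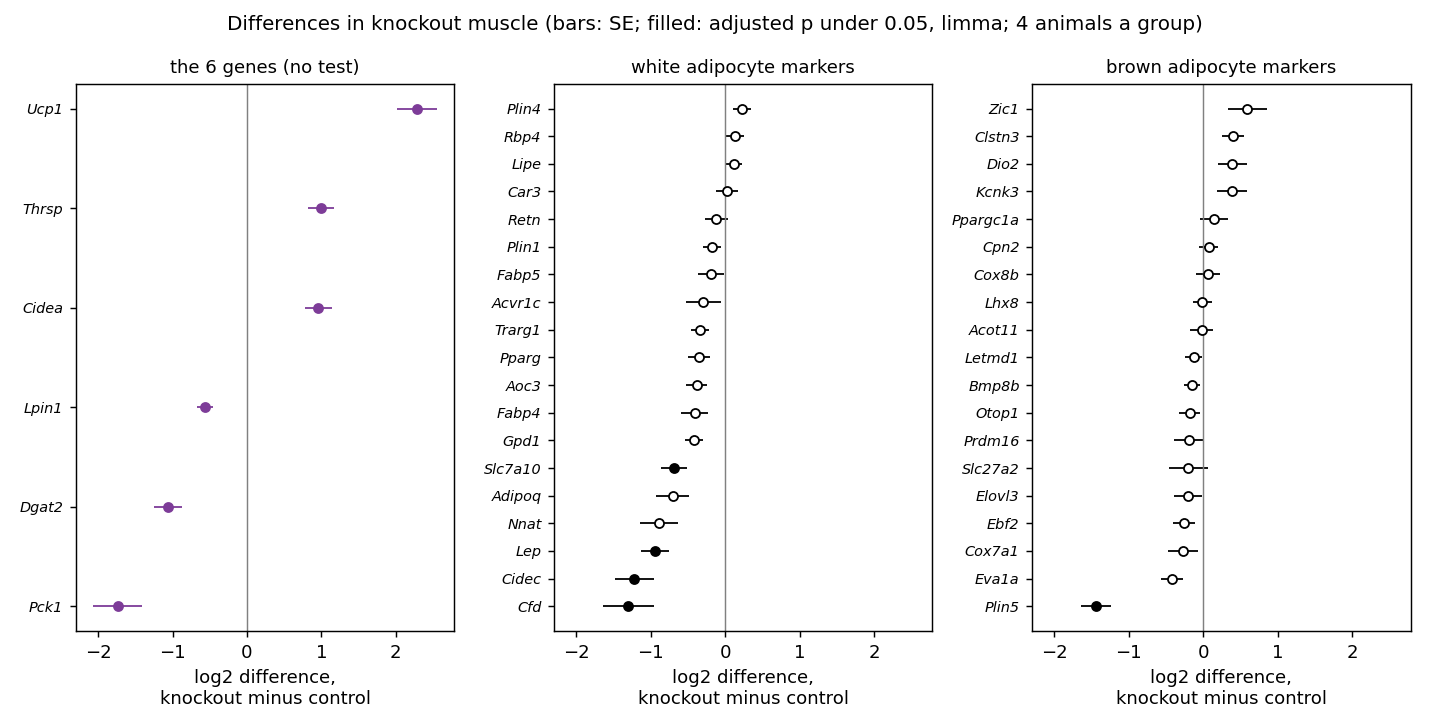
Log2 differences (knockout minus control, bars SE, 4 animals a group) of the 6 genes, which have no test, of 19 white adipocyte markers and of 19 brown adipocyte markers; filled markers passed at an adjusted p under 0.05 (limma). White markers lie mostly left of 0 and brown markers on both sides, with Plin5 the 1 brown marker that passed.

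The genes whose log2 values over the 8 animals came closest to each of the 6 were found by the root mean square difference after each gene was centred on its own mean, among 14105 other genes above the dim level. Closest to Pck1 were Cidec (0.40), Nfkbia, an inhibitor of NF-kappa-B (0.48), and Tcim (0.49). Closest to Ucp1 were Pifo (0.24), Pdlim2 (0.34) and Gng11, a G protein subunit (0.34). Pifo read 460.4, 1284, 923 and 1028 in knockout animals, against 167.3, 124.3, 142.7 and 206 in control animals, so its control level too was near the dim level. Closest to Thrsp were Tmem141 (0.16), Cstad (0.16) and the calcium channel subunit Cacna2d3 (0.16), and closest to Cidea were Spred3 (0.10), Ccdc141 (0.17) and Tmem25 (0.17). Closest to Dgat2 were Amigo3 (0.18), Mfsd4a (0.18) and Chrdl1, a BMP antagonist (0.21), and closest to Lpin1 were Emilin3 (0.07), Dpep3 (0.08) and Ccdc3 (0.08). Second rows gave smaller log2 differences for Tmem141 (0.27 against 0.92), Mfsd4a (-0.50 against -0.96) and Chrdl1 (-0.52 against -1.09). For Tcim the second row gave -1.48 against -1.30. These 18 genes share the difference between the groups with the gene they resemble. The profiles span both groups, so that sharing is built into the measure. None of the 6 was among the 3 closest to another of them, and members of opposite direction could not be close by this measure.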

How the data were processed

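The authors deposited 1 table of linear probe intensities, with 26423 rows and 1 column for each of the 24 arrays. All columns had a median of 626.429, which shows that the deposited intensities were put on a common median, and up to 5.37% of the values of an array were 0 or lower. The scanner, the background step and the scaling were not given in the sources used here. Per the labels, frozen muscle was extracted with Trizol, and the dye is Cy3 in one label field and Cy5 in another. Values under 38.77, the 5th percentile of all values, were raised to it before taking log2. Each animal, as the mean of its 3 hybridisations, counted as 1 replicate. Numbers 1 to 4 only name the animals of a group. An old probe annotation gave 1 symbol for 20377 rows, of which 18213 were current in RefSeq's GRCm38.p6 gene table and 2126 were synonyms. The row of highest mean stood for a gene. limma 3.58.1 (lmFit and eBayes, R 4.3.3) compared the groups over 17742 genes with Benjamini-Hochberg adjustment, and a gene was dim in a group at or under 124.61. Folds are 2 to the power of log2 differences. For a gene dim in the knockout the fold is a lower bound against the dim level, and the array number limits the precision. The step was tested on simulated data. Figures were drawn with Python 3.11.15, pandas 2.3.3 and matplotlib 3.10.9.

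The members and gene lists were chosen with earlier results of these data known. The text names the members, in each list the called genes of smallest p, up to 4, or the 2 of smallest p where none was called, the 3 genes closest to each member in profile, and Hira. Other list genes are given with their values as examples chosen after those were seen. The alternatives were 3 other scalings, a filter on dim genes, the mean over rows, every row as a feature, an added constant, the median of hybridisations, a fit of all arrays in which the animal was a random block, runs of animal numbers as a block or alone, an intensity trend, array weights, and leaving out animals or hybridisations. The higher floor, leaving out the 2 arrays of highest background and every row as a feature were added after seeing the data.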

Additional observations from a re-analysis of the deposited data

Results flagged for a closer look

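In 2 of 126 groups of 4 animals, or 1.59%, 1 animal stood far from the others by Dixon's criterion, where chance gives about 1 in 20. For Gpt2, knockout animal 1 stood at 14.708 on the log2 scale, above the other 3 knockout animals at 14.341 to 14.397 and below every control animal. For Tmem25, 1 of the genes closest to Cidea in profile, knockout animal 4 stood at 13.083, above the other 3 knockout animals at 12.353 to 12.465. Knockout animal 4 was also the highest of the knockout animals for Cidea.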

How the results depend on the processing

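None of the 6 genes, and none of the 50 other named genes that were called, turned direction under the 28 alternatives run. For several of these that outcome was fixed in advance. Median centring repeats the main fit, since all arrays had the same median. The dim filter, the run block, the fits of all arrays, the intensity trend and every row as a feature leave each log2 difference unchanged. The count of genes changed in knockout muscle (1647) was 2569 under quantile normalization and 3609 with array weights, and leaving out 1 animal or 1 hybridisation number gave 945 (without knockout animal 3) to 1693 (without control animal 2). With all arrays and the animal as a random block it was 3149 without and 2978 with the hybridisation number as a replicate block. Both fits take 1 within-animal correlation for every gene (0.378 and 0.393). For genes where it is higher, hybridisations count in part as replicates. The 19 list genes changed became 39 and 36 in those 2 fits, 34 with array weights, and 14 to 19 with an animal or hybridisation left out. Arrays of the same hybridisation number had a median correlation of deviations of 0.042 over 84 pairs, against -0.017 over 168 pairs of different numbers. The correlations ran from -0.63 to 0.75 and from -0.655 to 0.63, so these medians cannot decide whether some arrays were paired by number. Run A of the animal numbers alone called 62 genes and 1 list gene, and run B 508 and 5, with 2 animals per group in each. Dgat2 differed by -1.52 in run A and -0.60 in run B. Lpin1 differed by -0.45 under quantile normalization, -0.47 under cyclic loess and -0.45 as the mean of its rows; the cause was not tested. Of 50 named genes that were called, 33 kept the call without each of the 8 animals and 17 lost it for at least 1. With the floor at the dim level 12 named calls were lost. Among them only the differences of Lep (to -0.49) and Slc7a10 (to -0.39) moved, and for the others only the adjusted p rose. Ucp1, at the dim level in control muscle, differed by 1.83 with a constant added in place of the floor.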

Other observations

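Counts of other cell markers are read against the 9.28% of all genes called. Of 12 endothelial markers, all 12 with a difference below 0 and a median of -0.41, 2 fell and 0 rose, or 16.7%. Icam2 fell, with a log2 difference of -0.80 ± 0.16 (SE; limma, adjusted p = 0.0102), and Emcn had -0.59 ± 0.15 (adjusted p = 0.0346), a call lost without any 1 of the 4 control animals or knockout animals 3 or 4 (-0.63 to -0.50). Among 8 markers of smooth muscle and pericytes, whose median was -0.38, 3 fell and 1 rose, or 50%. Those that fell were Acta2, the smooth muscle actin (-0.62 ± 0.13; limma, adjusted p = 0.0148), Rgs5 (-0.61 ± 0.13; adjusted p = 0.0126) and Tagln (-0.59 ± 0.12; adjusted p = 0.00988). Lmod1 had 0.77 ± 0.18 (adjusted p = 0.0209) and lost its call without control animals 1 or 4 or knockout animal 1 (0.73 to 0.79). Of 10 fibroblast markers 0 were called (limma) and 4 had an unadjusted p under 0.05, with a median of -0.003 that was 0.06 with quantile normalization. Of 11 macrophage markers, with a median of 0.11, Cd163 alone was called, or 9.09% (-0.93 ± 0.26; limma, adjusted p = 0.049), and it was not called under quantile normalization or without control animals 2, 3 or 4 or knockout animals 2, 3 or 4 (-1.03 to -0.78). Of 7 Schwann cell markers, with a median of -0.45, S100b (-0.78 ± 0.18; adjusted p = 0.0233) and Mal (-0.66 ± 0.17; adjusted p = 0.0334) were called lower, or 28.6%. The S100b call was lost without animals 3 or 4 of either group (-0.76 to -0.67), and that of Mal without control animals 2 or 3 or knockout animals 3 or 4 (-0.66 to -0.55). Of 6 satellite cell markers, with a median of -0.19, Calcr was called, or 16.7%, at least 1.34-fold lower in knockout muscle (adjusted p = 0.00222). Of 4 blood cell genes Cd3e was called higher (0.60 ± 0.11; adjusted p = 0.00629) and Alas2 lower (-1.04 ± 0.23; adjusted p = 0.0189), the second not without control animal 3 or knockout animal 3 (-0.97 to -0.95), which is 50%. The calls of Emcn, Cd163, S100b, Mal and Alas2 were also lost with the floor at the dim level (adjusted p = 0.0531 to 0.114), which left their differences unchanged.

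The 6 genes lie on chromosomes 2, 7, 8, 12 and 18. Of the 36 nearest measured genes in the order of the RefSeq table, 3 on each side of each member, 3 were called, 2 higher and 1 lower, or 8.33%, near the 9.28% of all genes. Uvrag, next to Dgat2, had 0.64 (limma, adjusted p = 0.0151), Tubb6, next to Cidea, 0.82 (adjusted p = 0.0331), and E2f6, near Lpin1, -0.44 (adjusted p = 0.0432). Mogat2, a triglyceride synthesis gene on the other side of Dgat2, was dim and had 0.03 (adjusted p = 0.932).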
